A study of Homo sapiens with 6 samples.

Results

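A set of 9 genes that K562 cells barely transcribed under vehicle gained transcripts, at a low level, after inhibition of EZH2. The genes are TPD52, TTC39A, FSD1, AEBP1, ITIH5, ATP8A2, RBMS1, TRABD2A and LINC02860. Each was chosen by 1 read rule, at most 3 raw reads in each DMSO library and at least 10 in each EZH2i library. These 9 genes stand among 60671 rows of the count files, of which 26226 had at least 1 read in any library. All 6 libraries came from a single K562 clone carrying Flag-NLS-M.CviPI-Lamin-B1. K562 is a chronic myeloid leukemia line, and this clone makes a fusion of a GpC methyltransferase and lamin B1 when doxycycline is added. The DMSO group was 3 separate cultures in 0.1% DMSO for 72 h, and the EZH2i group was 3 separate cultures in 1 µM GSK343, an EZH2 inhibitor, for the same time. Both groups also received doxycycline at 1 µg/mL for the last 24 h, so every library carries the induced fusion. Only 1 clone, 1 dose and 1 time point were measured.

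EZH2 is the enzyme of Polycomb repressive complex 2 (PRC2) that methylates histone H3 at lysine 27, a mark found over genes that a cell lineage keeps silent. In a blood cell line such genes include many that work in matrix-producing, epithelial or neural cells. Blocking the enzyme lets the mark dilute as cells divide, and the comparison asks which genes then gain transcripts.

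The libraries are 3′ mRNA tag counts with 6327544 to 8987768 reads on genes each, 24026558 in all for DMSO and 22113264 for EZH2i. Levels are given as CPM, read counts scaled to a common TMM-adjusted library size, and 1 read was worth 0.113 to 0.156 CPM. One tag is made per transcript end, so levels were not divided by length. EZH2i replicate 3 had 12.7% of its reads outside annotated genes against 7.43% to 8.51% in the other libraries. Of 11 erythroid and K562 markers, 10 had at least 10 reads in every library, and their summed level was 900 to 1030 CPM in DMSO and 1020 to 1090 CPM in EZH2i. Of these, HBZ, an embryonic globin, rose from 71.4 ± 5.63 to 158 ± 27.3 CPM (SD, n = 3; adjusted p 6.14e-05 by edgeR), and HBG2, a fetal globin, from 94.0 ± 11.6 to 140 ± 29.3 CPM (SD, n = 3; adjusted p 0.0251, and 0.0119 to 0.138 without each library in turn). HBG2 has a near-identical copy, HBG1, with which it can share reads. EZH2 itself stood at 334 ± 22.9 CPM (SD, n = 3) in DMSO and 292 ± 20.6 CPM (SD, n = 3) in EZH2i, with an adjusted p of 0.306 in the quasi-likelihood test of edgeR, adjusted by the Benjamini-Hochberg method over all tested genes. The drug acts on the enzyme's activity, so this transcript level does not check the treatment.

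Over all genes that passed the low-count filter, 527 of 12364 (4.26%) were called at an adjusted p of 0.05 in edgeR's quasi-likelihood test. Of these, 413 (3.34%) were higher in EZH2i and 114 (0.922%) were lower; among the 12364, DESeq2 called 285 higher and 143 lower. The 9 genes were selected on this same contrast, so no test of them is given and these shares are only the setting in which they sit. The filter passed 7 of the 9, and TTC39A and ATP8A2 did not reach it.

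Together the 9 genes had 21, 17 and 18 reads in DMSO replicates 1, 2 and 3, and 161, 145 and 140 reads in EZH2i replicates 1, 2 and 3. Their summed level was 3.28, 2.01 and 2.04 CPM in the DMSO libraries and 18.2 to 21.7 CPM in the EZH2i libraries. Silent therefore means near the detection limit and not at 0. All 9 had reads in DMSO, and 3 reads corresponded to 0.340 to 0.468 CPM there. Switched on means a low level, 1.39 to 3.18 CPM on average. Bulk RNA cannot tell a few cells with many transcripts of a gene from many cells with few.

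**Figure D1:**
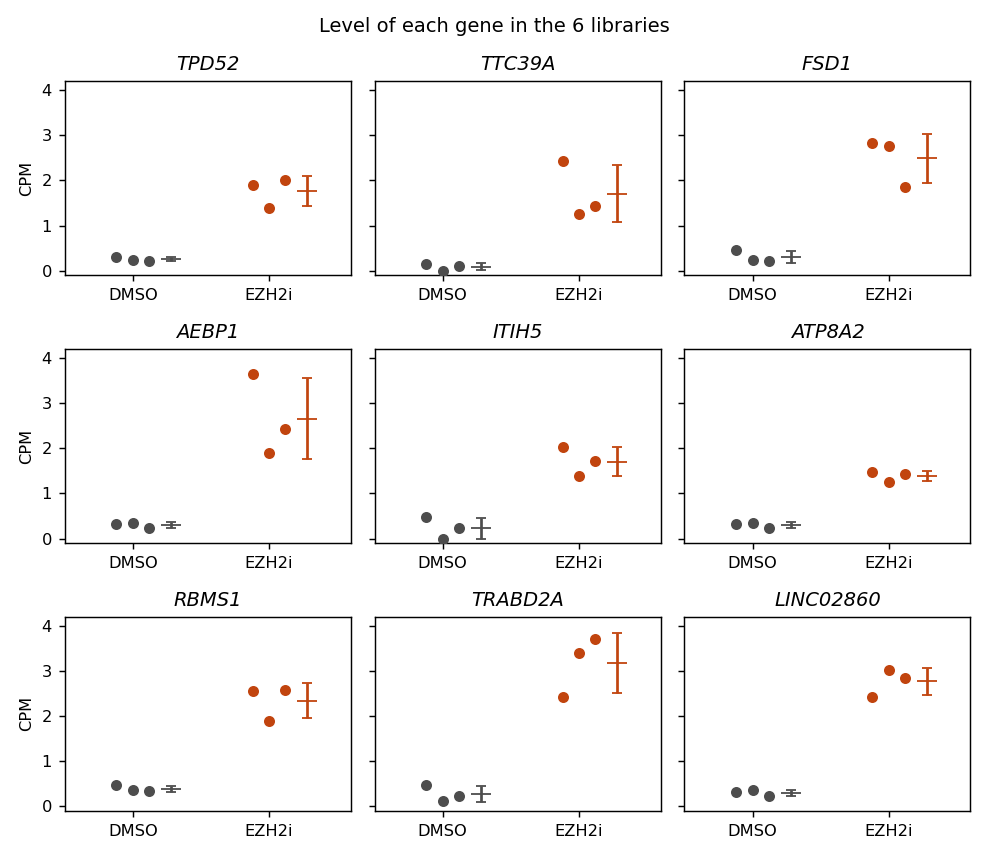
Level of each of the 9 genes in CPM (vertical axis) in the 3 DMSO libraries (grey points) and the 3 EZH2i libraries (orange points), replicates 1 to 3 from left to right. Bars beside the points are the mean ± SD (n = 3); every DMSO point is at or below 0.468 CPM and every EZH2i point is at or above 1.26 CPM, as the read rule requires.

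The plot of levels by library shows the gap that the rule demands and how the genes differ above it. The coefficient of variation over the 3 EZH2i libraries ran from 8.52% for ATP8A2 to 37.2% for TTC39A, with a median of 18.8%. EZH2i replicate 1 was highest for 5 genes, replicate 3 for 3 and replicate 2 for 1.

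The genes that act outside the cell come first. AEBP1 (ENSG00000106624) encodes a secreted protein that binds collagen in the extracellular matrix. It spans chr7:44104345-44114562 on the plus strand (GRCh38, GENCODE version 44). AEBP1 had 2, 3 and 2 reads in the DMSO libraries and 27, 15 and 17 in the EZH2i libraries. Its level was 0.298 ± 0.0656 CPM (SD, n = 3) in DMSO and 2.65 ± 0.901 CPM (SD, n = 3) in EZH2i. The first EZH2i culture was the highest, at 3.64 CPM against 1.89 and 2.43 CPM in the other two. On pooled reads the level was 8.93-fold higher, with a 95% exact binomial interval of 4.07 to 23.2. All such intervals cover counting error only.

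ITIH5 (ENSG00000123243) encodes a heavy chain of the inter-alpha-trypsin inhibitor family, proteins that bind covalently to hyaluronan and stabilise the matrix. The gene lies at chr10:7559270-7666998 on the minus strand. ITIH5 had 3, 0 and 2 reads in DMSO and 15, 11 and 12 in EZH2i. The mean was 0.231 ± 0.234 CPM (SD, n = 3) in DMSO, where replicate 2 had no read, and 1.71 ± 0.321 CPM (SD, n = 3) in EZH2i. The pooled fold was 8.05 (3.16 to 26.2). Its RefSeq promoter window is shown because it had the highest CpG count and G+C share of the windows next to an annotated start, and because a 10-base repeat runs through it. Capitals mark CpG in this and every later window, each of which covers 250 bases before a transcript start and 50 after it, from RefSeq on GRCh38.p14. The ITIH5 window is chr10:7666917-7667216, minus strand:
ITIH5: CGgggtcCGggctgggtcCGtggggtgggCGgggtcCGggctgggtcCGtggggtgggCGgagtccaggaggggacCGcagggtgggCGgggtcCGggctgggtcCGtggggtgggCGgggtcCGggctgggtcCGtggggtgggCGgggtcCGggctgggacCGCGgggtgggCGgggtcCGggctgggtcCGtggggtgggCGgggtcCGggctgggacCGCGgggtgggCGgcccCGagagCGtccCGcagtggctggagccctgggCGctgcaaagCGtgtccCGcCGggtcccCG
It held 34 CpG at 81.7% G+C. The letters GGGTGGGCGG occurred 8 times on the printed strand, and 0.439% of all 35116 windows held that motif at least once. No other window held 8 copies.

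TRABD2A and ATP8A2 act at membranes or on secreted ligands. TRABD2A (ENSG00000186854) encodes TIKI1, a membrane-bound metalloprotease that cuts WNT proteins and lowers their activity. It spans chr2:84821650-84907008 on the minus strand. TRABD2A had 3, 1 and 2 reads in DMSO and 18, 27 and 26 in EZH2i. The mean was 0.271 ± 0.179 CPM (SD, n = 3) in DMSO and 3.18 ± 0.667 CPM (SD, n = 3) in EZH2i. The pooled fold was 12.5 (5.48 to 35.3). Near its annotated start it overlaps TMSB10, an abundant actin-binding gene on the opposite strand whose start lies 1.35 kb from its own and which shares 9 exon bases with it. TMSB10 had 669 ± 27.5 CPM (SD, n = 3) in DMSO and 707 ± 194 CPM (SD, n = 3) in EZH2i, with an adjusted p of 0.829 in edgeR's quasi-likelihood test. EZH2i replicate 1 had the lowest value of both genes among the treated libraries. The strand setting of the counting is not given in the sources used here, and the part of TMSB10 in the TRABD2A counts was not tested.

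ATP8A2 (ENSG00000132932) encodes a P4-ATPase, a flippase that moves phosphatidylserine to the inner leaflet of membranes, best known from brain, retina and testis. At chr13:25371974-26025851, plus strand, it is the longest of the 9 genes at 654.0 kb. ATP8A2 had 2, 3 and 2 reads in DMSO and 11, 10 and 10 in EZH2i. The mean was 0.298 ± 0.0656 CPM (SD, n = 3) in DMSO and 1.39 ± 0.118 CPM (SD, n = 3) in EZH2i. The pooled fold was 4.69 (2.03 to 12.6), the smallest of the 9.

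FSD1, TPD52 and RBMS1 act inside the cell. FSD1 (ENSG00000105255) encodes a protein with fibronectin type III and SPRY domains that associates with microtubules and the centrosome. It lies at chr19:4304598-4323843 on the plus strand. FSD1 had 3, 2 and 2 reads in DMSO and 21, 22 and 13 in EZH2i. The mean was 0.310 ± 0.137 CPM (SD, n = 3) in DMSO and 2.49 ± 0.547 CPM (SD, n = 3) in EZH2i, with EZH2i replicate 3 the lowest. The pooled fold was 8.47 (3.85 to 22.0), the median of the 9. Its window, chr19:4304348-4304647 on the plus strand, spans the annotated start and is shown as the CpG-rich promoter of a gene with a called neighbour, SHD:
FSD1: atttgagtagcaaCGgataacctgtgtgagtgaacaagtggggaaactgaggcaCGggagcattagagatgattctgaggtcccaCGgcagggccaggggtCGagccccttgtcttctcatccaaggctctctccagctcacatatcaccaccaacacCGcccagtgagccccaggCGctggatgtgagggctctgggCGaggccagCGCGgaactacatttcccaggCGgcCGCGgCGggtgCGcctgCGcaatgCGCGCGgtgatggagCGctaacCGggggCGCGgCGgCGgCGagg
It held 25 CpG, an observed over expected ratio of 0.823.

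TPD52 (ENSG00000076554), tumor protein D52, is a coiled-coil protein of vesicle traffic that is often amplified in breast and prostate cancers. The gene spans 196 kb at chr8:80034745-80231232 on the minus strand. TPD52 had 2 reads in each DMSO library and 14, 11 and 14 in EZH2i. The mean was 0.258 ± 0.0467 CPM (SD, n = 3) in DMSO and 1.76 ± 0.328 CPM (SD, n = 3) in EZH2i, and the pooled fold was 6.88 (2.89 to 19.9). A second gene model on the same strand, ENSG00000276418, shares 877 exon bases with TPD52 and had no read in any library.

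RBMS1 (ENSG00000153250) encodes a protein that binds single-stranded DNA and RNA. It lies at chr2:160272151-160493807 on the minus strand. RBMS1 had 3 reads in each DMSO library and 19, 15 and 18 in EZH2i, so its DMSO counts sit on the limit of the rule in all 3 libraries. The mean was 0.388 ± 0.0701 CPM (SD, n = 3) in DMSO and 2.34 ± 0.393 CPM (SD, n = 3) in EZH2i. The pooled fold was 6.12 (2.99 to 14.1).

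TTC39A and LINC02860 have little known function. TTC39A (ENSG00000085831) encodes a protein with tetratricopeptide repeats and lies at chr1:51287258-51345116 on the minus strand. TTC39A had 1, 0 and 1 reads in DMSO and 18, 10 and 10 in EZH2i. The mean was 0.0897 ± 0.0806 CPM (SD, n = 3) in DMSO and 1.70 ± 0.634 CPM (SD, n = 3) in EZH2i. Its pooled fold was 20.1, but with 2 DMSO reads in all the interval ran from 5.20 to 172. RefSeq gives TTC39A 4 windows, and the most CpG-rich of the 11 windows of these genes is an inner one at chr1:51330513-51330812, minus strand, 14554 bases from the GENCODE start:
TTC39A: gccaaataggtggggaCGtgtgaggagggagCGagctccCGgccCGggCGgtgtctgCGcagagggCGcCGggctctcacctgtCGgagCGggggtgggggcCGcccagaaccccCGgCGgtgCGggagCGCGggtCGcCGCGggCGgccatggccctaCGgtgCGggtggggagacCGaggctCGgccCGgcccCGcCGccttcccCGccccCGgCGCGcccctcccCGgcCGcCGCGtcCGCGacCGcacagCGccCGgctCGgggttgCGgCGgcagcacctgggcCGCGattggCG
It held 46 CpG at a ratio of 0.947, against 22 CpG at 0.588 in the window at the annotated start. The counts are of 3′ tags, so they do not tell which start was used.

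LINC02860 (ENSG00000222004) is the 1 long noncoding RNA among 8 protein-coding genes. It lies at chr7:26637871-26647305, plus strand. LINC02860 had 2, 3 and 2 reads in DMSO and 18, 24 and 20 in EZH2i. The mean was 0.298 ± 0.0656 CPM (SD, n = 3) in DMSO and 2.77 ± 0.303 CPM (SD, n = 3) in EZH2i, and the pooled fold was 9.38 (4.29 to 24.3). Its window, chr7:26637621-26637920 on the plus strand, is shown for contrast with the CpG-rich ones:
LINC02860: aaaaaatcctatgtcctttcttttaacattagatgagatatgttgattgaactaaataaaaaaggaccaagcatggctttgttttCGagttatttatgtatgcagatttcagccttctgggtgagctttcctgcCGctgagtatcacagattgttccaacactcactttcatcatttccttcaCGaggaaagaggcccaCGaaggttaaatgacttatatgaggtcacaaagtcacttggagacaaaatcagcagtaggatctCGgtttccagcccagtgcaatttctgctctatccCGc
It held 6 CpG at 40.7% G+C.

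**Figure D2:**
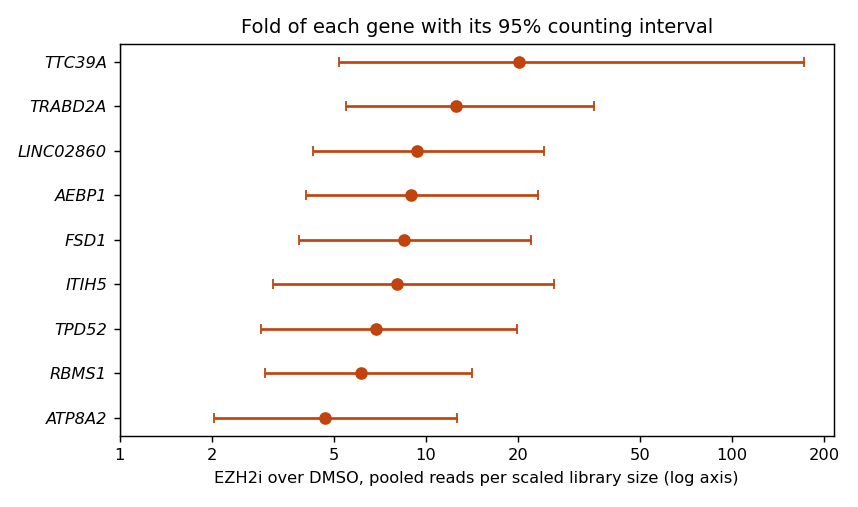
Pooled fold of each gene, EZH2i over DMSO, on a log axis; points are the fold of reads summed over 3 libraries per TMM-scaled library size, and bars are the exact 95% binomial interval for counting error. The folds run from 4.69 (ATP8A2) to 20.1 (TTC39A), and all 9 intervals overlap one another.

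In the plot of folds the intervals of all 9 genes overlap, so their order is not resolved at this depth. The median fold was 8.47.

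Promoter sequence was a feature the rule did not use. The set of RefSeq windows used here matched 7 of the 9 genes and held none for TPD52 and AEBP1. In the window nearest the annotated start, 5 of 7 genes (ATP8A2, FSD1, ITIH5, RBMS1 and TRABD2A) had a CpG observed over expected ratio above 0.6. The same held for 48.8% of all windows, and for 43.8% of 4300 windows of genes with at most 3 reads in each DMSO library and a read somewhere. The TRABD2A window starts 25924 bases from the GENCODE start. With 7 genes this is a description. The letters TATAAA and AGATAA, searched on both strands, were in 0 of the 11 windows and in 11.5% and 10.3% of all windows. CACGTG was in 2 of the 11 (7.26% of all) and GCGC in 8 (57.2% of all), and copies of these 2 can lie within or beside CpG counted above.

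**Figure D3:**
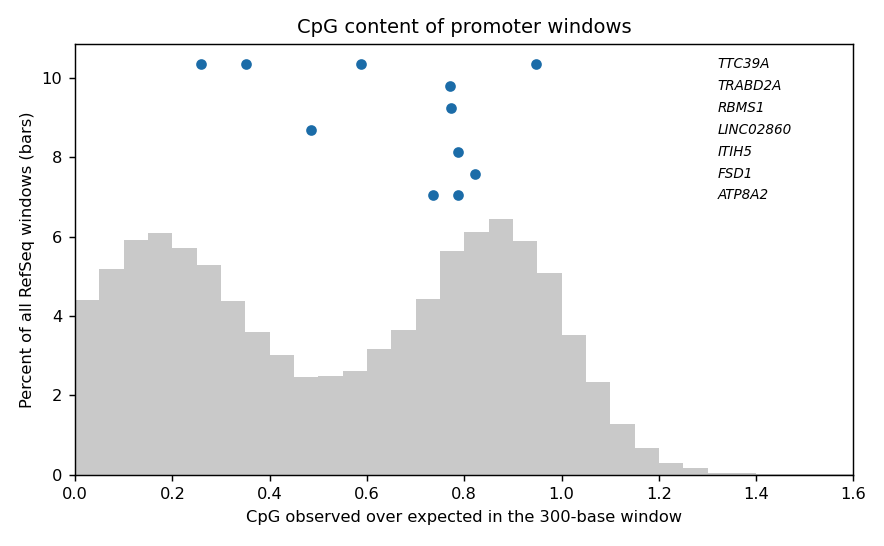
CpG observed over expected ratio (horizontal axis) of the 300-base RefSeq promoter windows. Grey bars give the percent of all 35116 windows in steps of the ratio; blue points, 1 row per gene and at a height with no scale, are the 11 windows of 7 genes, which range up to 0.947 in TTC39A.

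The plot of CpG content shows 2 groups of windows in the genome, low and high. The points of ATP8A2, FSD1, ITIH5, RBMS1 and TRABD2A fall in the high group. LINC02860, at 0.485, and the TTC39A window at the annotated start, at 0.588, lie between the groups. The other TTC39A windows spread over both.

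Neighbouring genes were compared next. The 9 genes lie on 7 chromosomes, 5 on the minus and 4 on the plus strand. Within 250 kb of their starts lay 129 other genes, 72 with reads and 35 that could be tested. Of these 35, 2 rose (5.71%) and 0 fell, near the 4.26% of all genes. At an unadjusted p of 0.05 the same test gave 5 higher and 3 lower, and DESeq2 called 0. The median log2 fold change of the 35 was 0.0096, against -2.15e-04 over all tested genes. RBMS1 had 3 genes in the window, none with a read, so nothing could be tested beside it. Exon bases were shared with another annotated gene by 5 of the 9, and apart from TMSB10 those partners (ENSG00000276418, TTC39A-AS1, MIR4649 and MIR4785) had no read in any library.

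The 2 neighbours were SHD and CAMK2B, both also of low level. Both passed the low-count filter only through their EZH2i counts, and with at least 10 reads in every library neither could be tested and 0 of 31 neighbours were called. SHD, an SH2-domain adaptor gene, starts 25.3 kb before FSD1. SHD had 2, 6 and 5 reads in DMSO and 17, 15 and 16 in EZH2i, with no overlap between the groups. Its log2 fold change was 1.95 (SE 0.459, adjusted p 0.0237 in edgeR's quasi-likelihood test). DESeq2 gave an adjusted p of 0.0971, and the edgeR call stood only without EZH2i replicate 2 (0.0427) when each library was left out in turn; the others gave 0.0542 to 0.108.

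CAMK2B, a calcium/calmodulin-dependent kinase subunit of neurons and muscle, starts 230 kb from AEBP1. CAMK2B had 2, 6 and 2 reads in DMSO and 16, 19 and 10 in EZH2i, again without overlap. Its log2 fold change was 2.21 (SE 0.522, adjusted p 0.0238 in edgeR's quasi-likelihood test), and DESeq2 gave 0.0869. The edgeR call stood without DMSO replicate 2 (0.0366) or EZH2i replicate 3 (0.0251) and was lost without any of the other 4 libraries (0.0509 or more). Thus both calls rest on few reads.

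**Figure D4:**
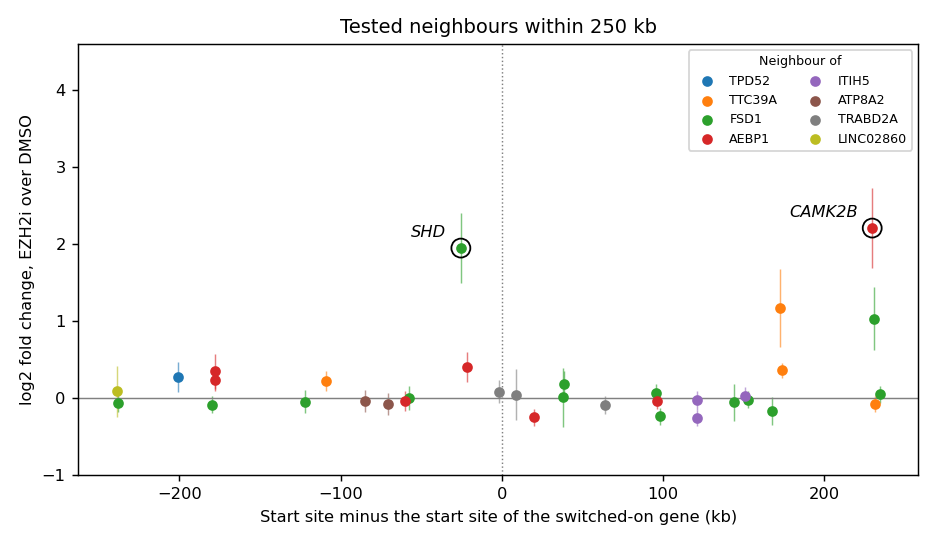
Log2 fold change, EZH2i over DMSO (vertical axis, bars ± SE), of the 35 tested neighbours against the distance of their start from the start of the switched-on gene in kb (horizontal axis, genome order), coloured by that gene. Black rings mark the 2 that passed the test, SHD at 1.95 and CAMK2B at 2.21; the lowest of the 35 is at -0.26.

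The plot of neighbours shows most points near 0 and SHD, the tested gene nearest to FSD1, well above it. RNF11 lay 109 kb from TTC39A at a log2 fold change of 0.22, and POLD2 lay nearest to AEBP1 at -0.25. NUP58 lay 70.5 kb from ATP8A2 at -0.08, KIN 121 kb from ITIH5 at -0.03, and MRPS28 201 kb from TPD52 at 0.27. EPS15, an endocytic adaptor gene 174 kb from TTC39A, came nearest to the threshold among the rest, at a log2 fold change of 0.36 and an adjusted p of 0.0525 in edgeR's quasi-likelihood test.

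Relatives of the 9 genes were taken from a list of 27 family members. Of these 19 had reads and 10 could be tested, and none was called by edgeR's quasi-likelihood test or by DESeq2. When the edgeR fit also held the replicate number as a block, ATP8B1, a relative of ATP8A2, passed at an adjusted p of 0.0416. At an unadjusted p of 0.05, 2 of the 10 were higher and 1 was lower. Of the TPD52 paralogs, TPD52L1 and TPD52L2 were well expressed throughout and TPD52L3 had no read in any library. TPD52L1 had 99.6 ± 4.77 CPM (SD, n = 3) in DMSO and 91.5 ± 6.28 CPM (SD, n = 3) in EZH2i. TPD52L2 had 120 ± 16.4 and 91.2 ± 10.0 CPM (SD, n = 3), with an adjusted p of 0.0700 in edgeR's quasi-likelihood test. RBMS2, the paralog of RBMS1, had 2.54 ± 0.913 CPM (SD, n = 3) in DMSO and 4.99 ± 0.419 CPM (SD, n = 3) in EZH2i, with an adjusted p of 0.0749. TTC39B (3.89 and 4.21 CPM) and FSD1L (1.57 and 1.67 CPM) showed adjusted p values of 0.850 and 0.976. RBMS3, TRABD2B, CPXM2, ITIH1, ITIH2 and ITIH3 had no read in any library.

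In a list of 23 collagen and matrix partners of the kind AEBP1 binds or works beside, 7 could be tested, 4 rose and 0 fell; 1 was lower at an unadjusted p of 0.05, and DESeq2 called 5 higher and 0 lower. Over all tested genes 4.26% were called and 3.34% were higher. COL4A2, BMP1 and LAMA5 did not pass, with adjusted p values of 0.844, 0.790 and 0.252, and 16 of the 23 were not tested. Low genes of the list passed the filter through their EZH2i counts, so the count of 4 is no support for the list as a whole: with at least 10 reads in every library, LAMB1 was the 1 call left among 45 genes of all lists. LAMC1, a laminin chain, is 1 of the 4 and meets the same read rule, so 3 of 6 remain without it. COL1A1, the main chain of type I collagen, had 8, 11 and 19 reads in DMSO and 30, 49 and 55 in EZH2i, a log2 fold change of 1.91 (SE 0.345, adjusted p 0.00424 in edgeR's quasi-likelihood test). LOXL2, a collagen cross-linking enzyme, had 9, 11 and 13 reads in DMSO and 36, 49 and 35 in EZH2i, a log2 fold change of 1.93 (SE 0.312, adjusted p 0.00188). LAMB1, another laminin chain, rose from 35.6 ± 5.04 to 57.4 ± 5.58 CPM (SD, n = 3), a log2 fold change of 0.69 (adjusted p 0.00578). These 3 calls remained past 0.05 without each library in turn.

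Markers of other cell types were at low or mixed levels beside this rise. The 7 fibroblast markers summed to 1.40 to 2.83 CPM in DMSO and 5.80 to 9.13 CPM in EZH2i, of which COL1A1 held most. LUM had no read, 4 of 7 had at most 3 reads in every library, and COL1A1 was the only one called. T cell markers summed to 58.5 to 70.9 CPM in DMSO and 83.0 to 100 CPM in EZH2i, with CD3D the marker called and CD5 at 0; the adjusted p of CD3D by edgeR ran from 0.0380 to 0.148 with each library left out. Monocyte markers summed to 11.2 to 16.4 and 20.4 to 23.2 CPM, with LYZ called and CSF1R at 0; the LYZ call was lost with any library left out (adjusted p 0.0530 to 0.160 by edgeR) and with DESeq2 (0.0882). B cell markers summed to 3.79 to 4.75 and 5.28 to 6.28 CPM, epithelial markers to 72.7 to 83.2 and 61.1 to 66.5 CPM, and neuronal markers stayed at or below 0.156 CPM. Their part in the levels of AEBP1, ITIH5 and the matrix genes was not tested.

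The hyaluronan list, which holds the partners of ITIH5, had 24 genes, 5 tested, 1 called higher and 0 lower, beside 4.26% called over all tested genes; 1 was lower at an unadjusted p of 0.05. The called gene was CD44, the hyaluronan receptor, with 5, 15 and 19 reads in DMSO and 52, 61 and 51 in EZH2i. Its log2 fold change was 2.16 (SE 0.313, adjusted p 8.99e-04 in edgeR's quasi-likelihood test), and the groups did not overlap. CD44 passed the low-count filter only through its EZH2i counts, and it was not tested where at least 10 reads were required in every library. Its call is thus no support for the list as a whole. HMMR, an intracellular hyaluronan-binding protein, had 300 ± 23.8 and 261 ± 6.25 CPM (SD, n = 3) with an adjusted p of 0.287.

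Lists for ATP8A2 and TRABD2A showed no call in the main test. Of 13 tested flippases and scramblases, 0 were called by edgeR's quasi-likelihood test or DESeq2, and 3 were higher and 0 lower at an unadjusted p of 0.05. With a replicate block ATP8B1 of this list had an adjusted p of 0.0416 by edgeR, against 0.136 without the block. TMEM30A, the subunit that ATP8A2 needs to leave the endoplasmic reticulum, had 80.1 ± 8.01 CPM (SD, n = 3) in DMSO and 70.2 ± 3.39 CPM (SD, n = 3) in EZH2i, with an adjusted p of 0.364. Of 8 tested genes of WNT processing and inhibition, 0 were called by either tool, and 1 was higher and 1 lower at an unadjusted p of 0.05. NOTUM, a secreted enzyme that removes the lipid from WNT, had 42, 54 and 40 reads in DMSO and 14, 15 and 29 in EZH2i, an adjusted p of 0.0588 in edgeR's quasi-likelihood test. The groups of NOTUM did not overlap, and its adjusted p by edgeR ran from 0.0154 to 0.197 with each library left out and was 0.0398 with a replicate block.

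The 13 tested PRC2 subunits gave 0 calls by either tool, with 2 higher and 1 lower at an unadjusted p of 0.05. EED had 79.6 ± 5.41 and 63.4 ± 12.3 CPM (SD, n = 3), with an adjusted p of 0.178 in edgeR's quasi-likelihood test. SUZ12 had 128 ± 11.6 and 124 ± 8.86 CPM (SD, n = 3), with an adjusted p of 0.858.

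The read rule itself selected 11 rows, the 9 genes above with LAMC1 and PAGE4. LAMC1 had 0, 1 and 2 reads in DMSO and 35, 25 and 22 in EZH2i. PAGE4, a cancer/testis-type gene on chromosome X, had 1, 3 and 3 reads in DMSO and 22, 14 and 12 in EZH2i. The rule turned round, low in EZH2i and high in DMSO, selected 0 rows. Rows just outside the rule included PFN2, with 1, 2 and 2 reads in DMSO and 9, 12 and 17 in EZH2i, and LNX1, with 3, 3 and 2 and 14, 12 and 8. Just inside it were ATP8A2 and TTC39A, whose lowest EZH2i count was 10.

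**Figure D5:**
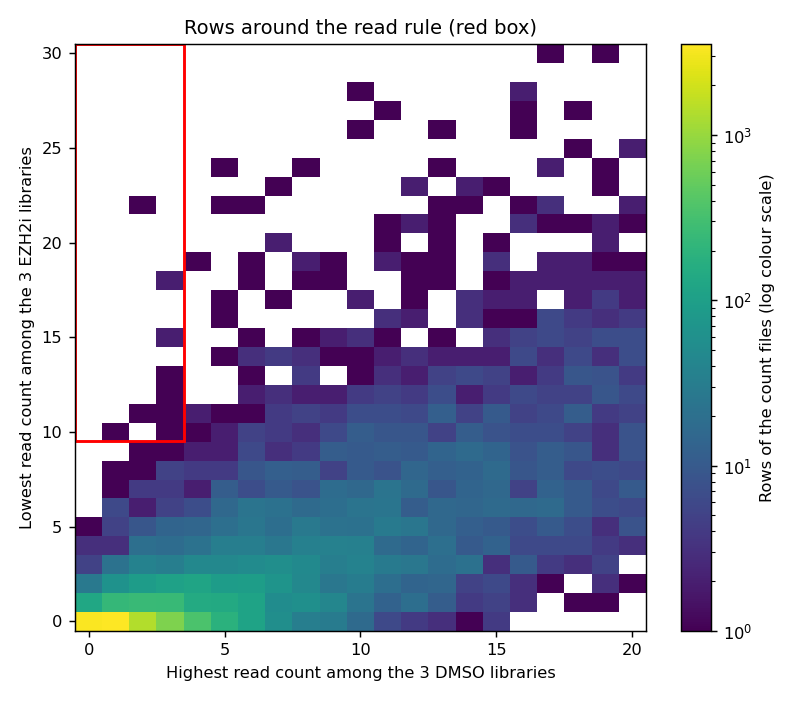
Rows of the count files with a read in any library, by their highest count among the 3 DMSO libraries (horizontal axis, up to 20) and their lowest among the 3 EZH2i libraries (vertical axis, up to 30); colour is the number of rows on a log scale. The red box holds the 11 rows with at most 3 DMSO reads and at least 10 EZH2i reads, 9 of which are described here.

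The map of read counts shows a few rows inside the box and a continuous edge of rows just outside it. Allowing 5 DMSO reads and 8 EZH2i reads added 33 rows. Ordered by their lowest EZH2i count, these began with TIE1, SERPING1, TUBA3C, NBL1, NOTCH2 and TMEM154, followed by AIM2, ZDHHC23 and DNAJC12, which tied at 11 reads. TIE1, an endothelial receptor, had 3, 2 and 5 reads in DMSO and 24, 26 and 24 in EZH2i. SERPING1, the C1 inhibitor of complement, had 1, 5 and 1 reads in DMSO and 27, 22 and 31 in EZH2i. NOTCH2, a cell fate receptor, had 2, 5 and 4 reads in DMSO and 28, 16 and 19 in EZH2i. The order is by read count over the same 6 libraries, and each of the 9 rows named had more than 3 reads in a DMSO library.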

How the data were processed

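RNA was profiled with a 3′ mRNA tag kit in 6 libraries, 3 of DMSO and 3 of EZH2i, grouped by their titles. The authors aligned reads to hg38, with STAR 2.6.0c in the submitters' processing notes, and counted them per Ensembl gene with HTSeq 0.11.2; the deposited values are raw counts per library and replicates were not pooled. Rows that name no gene were left out; genes held 63.6% to 67.9% of the listed reads. A deposited table of the authors' DESeq2 comparison, with fold changes and p-values, was not used.

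The main test was that of edgeR 4.0.16, run in R 4.3.3 (TMM, filterByExpr with a minimum count of 10, quasi-likelihood test, two-sided, Benjamini-Hochberg adjustment over all tested genes, threshold 0.05), and again with DESeq2 1.42.0. The script was tested on simulated data. Members and lists were chosen with earlier results of these data known. Named genes were the 9 members, rows meeting their rule, the first 8 rows of like pattern, called neighbours within 250 kb, overlapping genes, paralogs, called list genes, EZH2, EED and SUZ12; DNAJC12, PFN2, LNX1, COL4A2, BMP1, LAMA5, EPS15, NOTUM, HMMR, TMEM30A, the nearest neighbours and the markers were named after their values were seen. ATP8B1 was also named after its values were seen. GENCODE version 44 (GRCh38) matched 60401 of 60671 IDs. The counts do not show which strand setting was used.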

Additional observations from a re-analysis of the deposited data

How the results depend on the processing

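Changing the settings moved the counts more than the folds. The median fold of the 9 genes was 8.47 and stayed between 7.28 and 9.58 under every alternative run. The read rule fixed these genes on the same libraries, so this steadiness follows in part from their selection. The count of called genes, 527, became 928 with no filter on low counts (579 higher, 349 lower), 148 at an adjusted p of 0.01, and 209 to 536 without each replicate in turn. Called neighbours, 2 of 35, became 0 with DESeq2, 0 with at least 10 reads in every library, 0 at an adjusted p of 0.01, 1 within 100 kb, 4 within 1 Mb, and 0 to 1 without each replicate. List genes called, 5 of 53, became 1 with at least 10 reads in every library, which removes low genes, 11 with no filter, and 5 to 7 without each replicate. The read rule, 11 rows, gave 1 at 1 DMSO read or fewer, 23 at 5 or fewer, 71 at 5 EZH2i reads or more, 1 at 20 or more, 14 to 21 without each replicate, and 5 on CPM, where 3 of the 9 genes met it. Same-numbered libraries correlated at -0.0573, -0.0181 and -0.0207 in their deviations from the group means, so no shared replicate effect was seen. These values cannot show whether the cultures were paired. With a replicate block 599 genes, 450 of them higher, and 7 list genes were called. The cause of these changes was not tested. At 1 read per 0.113 to 0.156 CPM, depth limits what can be called off or on.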

Other observations

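The relaxed read rule turned round, at most 5 reads in each EZH2i library and at least 8 in each DMSO library, selected 8 rows against 44 in the direction of the 9 genes. LRCH4, a leucine-rich repeat gene, had 9, 13 and 9 reads in DMSO and 3, 5 and 1 in EZH2i. SNORD99, a small nucleolar RNA gene, had 13, 10 and 9 reads in DMSO and 2, 4 and 3 in EZH2i. The rest were 3 ribosomal protein pseudogenes (RPL36AP26, RPL21P111 and RPS27AP19), LINC01473 and 2 rows without a symbol.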
